A study of Mus musculus with 3 samples.

Results

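The Hedgehog pathway genes described here are 10 genes chosen by their symbols from 24062 in the count tables. They are the ligand *Shh*, the receptor *Ptch1*, the co-receptors *Gas1*, *Boc* and *Cdon*, the membrane transducer *Smo*, the inhibitor *Sufu* and the transcription factors *Gli1*, *Gli2* and *Gli3*. RNA was sequenced from the rostrum (the front of the head) of E9 mouse embryos with 18 to 22 somites, both groups being of the 3H1 Balb strain. The *tuft* group consisted of embryos that carried the spontaneous nonsense allele of *Tet1* on both copies and had a neural tube closure defect, and the wild-type group consisted of embryos of the background strain without that allele. In the paper, RNA of 3 embryos was pooled for each group. Each group has 1 column of counts, so no value below has a replicate error, and a pool holds no value for a single embryo. GEO's labels name 2 *tuft* samples and 1 wild-type sample, but a single column of counts was analyzed for either genotype, and that of *tuft* could not be tied to one of its samples. Whether the *tuft* column joins both samples is not known, and it is called the *tuft* library below.

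In Hedgehog signaling, a secreted ligand binds PTCH1, which otherwise holds SMO inactive. Active SMO enters the primary cilium, SUFU releases the GLI proteins, and these switch target genes on, *Gli1* and *Ptch1* among them. GLI1 acts as an activator, GLI2 mainly as an activator and GLI3 mainly, after cleavage, as a repressor. In the embryonic head, SHH from the prechordal plate and the ventral forebrain patterns the ventral midline, and loss of the pathway causes holoprosencephaly, while excess signaling is known to disturb closure of the neural folds.

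Among the 10 genes, *Shh* was 5.52-fold higher in the *tuft* library, and *Ptch1* and *Gli2* were 2.99-fold and 2.19-fold lower. The remaining 7 genes differed by less than 2-fold. *Smo*, *Sufu*, *Gli1*, *Gli3* and *Gas1* lay above wild type and *Boc* and *Cdon* below it, for *Gli3* only after scaling other than to library totals. All 10 genes had at least 189 counts in each library and none was lost to the minimum of 10 counts in both libraries together. Before the scaling between libraries described below, their summed share of the library was 1265 CPM in *tuft* and 1323 CPM in wild type. CPM are counts scaled to a library of 1000000 gene counts.

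These libraries differed at most genes. Counts on genes summed to 6433067 in *tuft* and 14251942 in wild type, and were scaled by TMM (trimmed mean of M-values) with a factor of 0.761 for *tuft* relative to wild type. CPM on this scale is called normalized CPM below. Plain CPM, including each summed level of a gene list, rests on library totals alone. Under library totals every log2 fold change is shifted by -0.39 against TMM. Fold changes are *tuft* over wild type with a 95% Clopper-Pearson interval, which covers counting error only, since there is 1 library per group. Reads carry no molecular identifiers, so repeated copies of 1 molecule cannot be set apart. A gene is called past 2-fold here when its fold change reached 2 in either direction and the interval left out 1. Of the 13979 genes with 10 or more counts over both libraries, 58.5% were past 2-fold, 21.2% higher and 37.3% lower in *tuft*, and their median log2 fold change was -0.46. Of the called genes, 36.3% were higher under TMM and 25.6% under library totals alone. For the mutated gene, *Tet1*, 32 reads were counted in *tuft* against 435 in wild type, 0.214 times the wild-type level after scaling (0.145 to 0.307).

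Against that background, 3 of the 10 Hedgehog genes (30.0%) were past 2-fold, 1 higher and 2 lower, and their median log2 fold change was 0.43. Genes of like level give a closer background. With a mean level from 30 to 100 normalized CPM, as for *Shh*, *Gli1*, *Gli2*, *Gas1*, *Boc* and *Cdon*, 46.8% of 3815 genes were past 2-fold (23.7% higher, 23.1% lower) and the median log2 fold change was 0.03. From 100 to 300, as for *Ptch1*, *Sufu* and *Gli3*, these values were 44.7% of 1775 genes (29.9% higher, 14.8% lower) and 0.31. From 300 to 1000, as for *Smo*, they were 48.8% of 445 genes (38.2% higher, 10.6% lower) and 0.55. A difference of 2-fold between these libraries was thus common among genes of this level, and the count of Hedgehog genes past 2-fold was not above it.

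**Figure D1:**
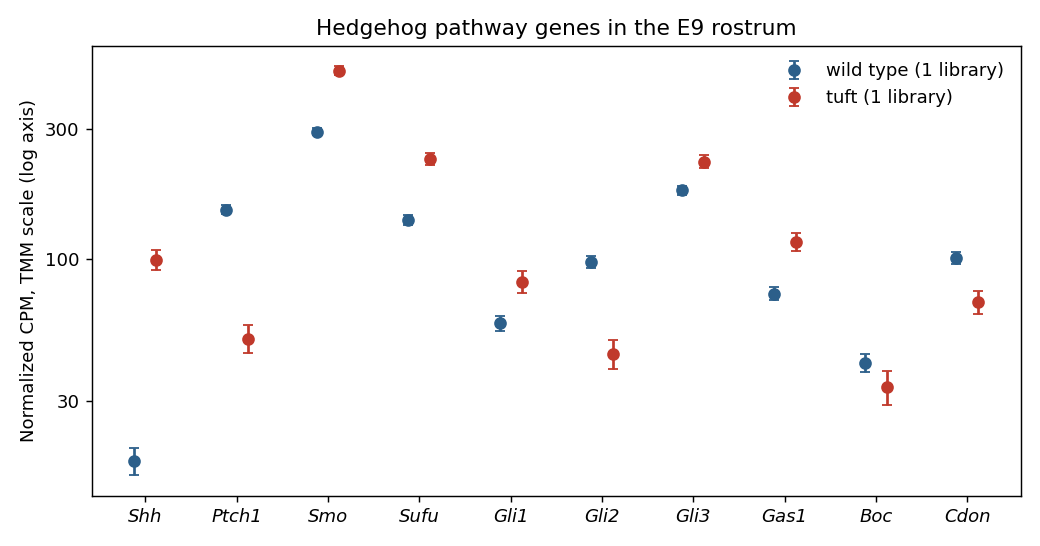
Normalized CPM (log axis, TMM scale) of the 10 Hedgehog pathway genes in the wild-type library (blue) and the *tuft* library (red), with exact Poisson 95% intervals for counting error and 1 library per group. *Shh* stands higher in *tuft* (99.3 against 18.0), whereas *Ptch1* (50.8 against 152) and *Gli2* (44.6 against 97.4) stand lower.

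The ligand *Shh* (chromosome 5 of GRCm38, 28456840 to 28467101), which encodes the secreted Sonic hedgehog protein, had 557 counts in *tuft* against 294 in wild type. The count was greater in *tuft* although its library was the shallower one. On the TMM scale the level was 99.3 normalized CPM in *tuft* and 18.0 in wild type, and the fold change was 5.52 (4.78 to 6.38). Of all tested genes, 93.9% had a lower fold change than *Shh*. It was the one member still past a threshold of 4-fold, and its log2 fold change, 2.46, was 2.07 under library totals. The annotation places the lncRNA *9530036O11Rik* over one end of *Shh*, and it had no count in either library.

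Cells that make *Shh* at this stage share other markers. Of 8 markers of the floor plate, prechordal plate and notochord, with *Shh* among them, 6 were tested, and 2 were higher past 2-fold, 1 was lower and 3 were not called. The summed level of the 8 was 127 CPM in *tuft* and 43.9 CPM in wild type, of which *Shh* itself held 86.6 CPM and 20.6 CPM. *Foxa2*, a forkhead factor of the floor plate and the foregut endoderm, had 127 counts in *tuft* against 189 in wild type, and the fold change was 1.96 (1.55 to 2.46). *Foxj1*, a factor for motile cilia that the floor plate expresses, had 106 and 17 counts, and the fold change was 18.2 (10.8 to 32.3). The notochord markers *T*, with 2 and 5 counts, and *Noto*, with 0 and 0 counts, were at or near 0 in both libraries. *Chrd* and *Gsc* had no count in *tuft* and 18 and 14 counts in wild type. Their fold changes were at most 0.662 and 0.878, the upper ends of their intervals. In pooled tissue, more cells that make a transcript and more RNA per cell cannot be told apart, and the part of these cells in the *Shh* difference was not tested.

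The receptor *Ptch1* (chromosome 13, 63508328 to 63573460), which restrains SMO and is itself switched on by the pathway, had 285 counts in *tuft* against 2485 in wild type. Its level was 50.8 normalized CPM in *tuft* and 152 in wild type, and the fold change was 0.334 (0.294 to 0.378), or 2.99-fold lower. Of all tested genes, 28.0% had a lower fold change. Among genes of like level, from 100 to 300 normalized CPM, the lower quartile of log2 fold change was -0.56, against -1.58 for *Ptch1*. Of those genes, 14.8% were lower past 2-fold. No other annotated gene overlaps it, nor *Sufu* or *Gas1*. Short or noncoding genes overlap *Smo* (*Gm13717*, a pseudogene), *Gli2* (*Gm51642* and *Mir6346*), *Gli3* (*Gm6556*), *Boc* (*Gm30064* and *Mir3081*) and *Cdon* (*LOC115487300*), of which *Mir3081* had 0 counts in both libraries and the others were not analysed here.

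The co-receptors, which bind SHH together with PTCH1, did not pass 2-fold. *Gas1* (chromosome 13, 60174405 to 60177535), a GPI-anchored protein, had 647 counts in *tuft* against 1219 in wild type, and the fold change was 1.55 (1.40 to 1.70). *Cdon* (chromosome 9, 35421528 to 35507652) and *Boc* (chromosome 16, 44485045 to 44558870) encode related membrane proteins of the immunoglobulin superfamily. *Cdon* had 389 counts in *tuft* against 1650 in wild type, and the fold change was 0.687 (0.613 to 0.767). *Boc* had 189 counts in *tuft* against 677 in wild type, the fewest of the members in *tuft*, with a fold change of 0.813 (0.688 to 0.957). *Gas1* was thus above wild type and both immunoglobulin family members below it, each by more than counting error.

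*Smo* (chromosome 6, 29735497 to 29761366), the seven-pass transducer, and *Sufu* (chromosome 19, 46396896 to 46488804), which holds the GLI proteins inactive, act on opposite sides of the pathway. *Smo* had 2768 counts in *tuft* against 4804 in wild type, and the fold change was 1.68 (1.60 to 1.76). *Sufu* had 1311 and 2270 counts, and the fold change was also 1.68 (1.57 to 1.80). Both were above wild type by more than counting error and under 2-fold.

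The GLI transcription factors differed among themselves. *Gli1* (chromosome 10, 127329882 to 127341579), whose transcription follows pathway activity, had 463 counts in *tuft* against 948 in wild type, and the fold change was 1.42 (1.27 to 1.59). *Gli2* (chromosome 1, 118834061 to 119054405) had 250 counts in *tuft* against 1591 in wild type, and the fold change was 0.458 (0.399 to 0.523). *Gli3* (chromosome 13, 15463723 to 15730026) had 1282 and 2922 counts, and the fold change was 1.28 (1.20 to 1.36). *Gli2* was lower by 2.19-fold, and *Gli1* and *Gli3* were within 2-fold. Under library totals the log2 fold change of *Gli3* turned from 0.35 to -0.04 and that of *Gli1* dropped from 0.51 to 0.11, both with intervals that then held 0. *Arhgap9*, which overlaps the end of *Gli1*, had 0 counts in *tuft* against 9 in wild type.

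**Figure D2:**
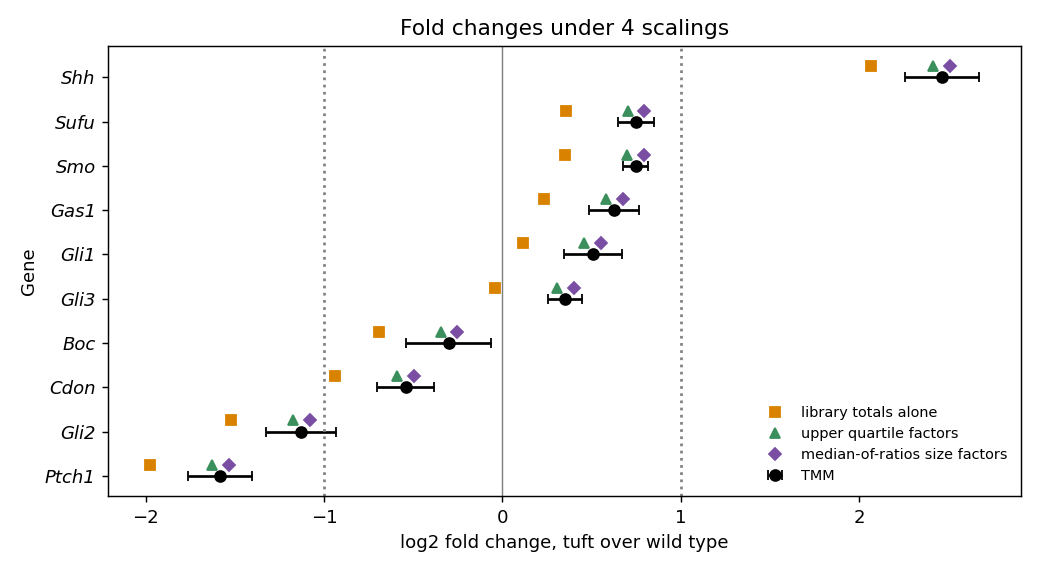
Log2 fold change (*tuft* over wild type) of each Hedgehog pathway gene, with the TMM value in black with its 95% counting interval and 3 other scalings as coloured symbols; dotted lines mark 2-fold. *Shh* lies to the right of the 2-fold line and *Ptch1* and *Gli2* to the left of it under each scaling drawn, whereas *Gli3* crosses 0 under library totals.

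Ratios between the counts of members within 1 library do not depend on how the libraries are scaled. They are not divided by gene length, so a ratio within a library is of counts and not of transcript levels. The change of a ratio between the libraries does not depend on length. The ratio of *Shh*, the ligand, to *Ptch1*, its receptor, was 1.95 in *tuft* and 0.118 in wild type. It was 16.5 times as large in *tuft* (13.6 to 20.0, conditional exact 95% interval). *Gli1* and *Ptch1*, both known targets of the pathway, had a ratio of 1.62 in *tuft* and 0.381 in wild type, 4.26 times as large in *tuft* (3.60 to 5.04). The ratio of the receptor *Ptch1* to the transducer *Smo* was 0.103 in *tuft* and 0.517 in wild type, 0.199 times that of wild type (0.174 to 0.227).

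The count of the activator *Gli2* was 0.195 of that of *Gli3* in *tuft* and 0.544 of it in wild type. The *tuft* ratio was 0.358 times that of wild type (0.307 to 0.416). In contrast, the ratio of *Gli1* to *Gli3* was 0.361 in *tuft* and 0.324 in wild type, and its change of 1.11 (0.976 to 1.27) was within counting error. That of *Gli1* to *Gli2* was 3.11 times as large in *tuft* (2.60 to 3.71). Among the co-receptors, *Gas1* to *Cdon* had a ratio of 1.66 in *tuft* and 0.739 in wild type, 2.25 times as large (1.94 to 2.61), while *Boc* to *Cdon* changed by 1.18 (0.968 to 1.45), within counting error. *Sufu* to *Smo* was 0.474 in *tuft* and 0.473 in wild type, a change of 1.00 (0.922 to 1.09). Of the 9 pairs, 3 therefore had an interval that held 1, and these intervals compare the 2 libraries and not the genotypes.

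**Figure D3:**
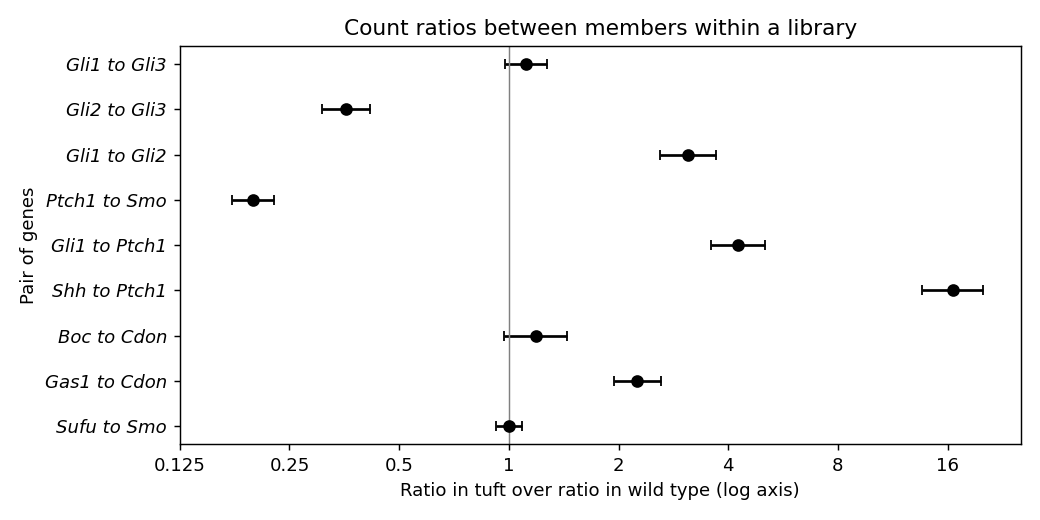
Ratio of the counts of each pair of Hedgehog genes in the *tuft* library divided by the same ratio in wild type (log axis), with conditional exact 95% intervals for counting error. *Shh* to *Ptch1* stands highest at 16.5 and *Ptch1* to *Smo* lowest at 0.199, whereas *Sufu* to *Smo*, *Boc* to *Cdon* and *Gli1* to *Gli3* cover 1.

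To compare levels between genes, normalized CPM were divided by the length of all exons of the gene in kilobases. In wild type the order began with *Smo*, at 77.8 per kilobase, followed by *Gas1* (25.2), *Ptch1* (23.1), *Sufu* (20.0), *Gli3* (18.6), *Gli1* (15.3), *Gli2* (14.2), *Cdon* (13.1), *Boc* (9.30) and *Shh* (6.68). Neighbours whose counting intervals overlapped were *Gas1* and *Ptch1*, *Sufu* and *Gli3*, *Gli1* and *Gli2*, and *Gli2* and *Cdon*. In *tuft*, *Smo* again led, at 130.5 per kilobase, and *Gas1* was again next (38.9). *Shh* came after it (36.9), then *Sufu* (33.6), *Gli3* (23.8), *Gli1* (21.8), *Cdon* (8.99), *Ptch1* (7.72), *Boc* (7.56) and *Gli2* (6.49). Overlapping neighbours there were *Gas1* and *Shh*, *Shh* and *Sufu*, *Gli3* and *Gli1*, *Cdon* and *Ptch1*, *Ptch1* and *Boc*, and *Boc* and *Gli2*. *Shh* thus went from the last of the 10 places in wild type to place 3 in *tuft*, *Ptch1* from place 3 to place 8, and *Gli2* from place 7 to place 10. The summed exons of the 10 genes were 2.69 to 9.59 kilobases long, against a median of 3.75 over all tested genes, and the GC content of their longest coding transcript was 47.6% to 58.5%, against 50.8%.

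TET1 oxidizes methylated cytosine in CpG dinucleotides, so the CpG content of the promoters was described. The RefSeq table (GRCm38.p6) gave a promoter for 7 of the 10 genes, *Shh*, *Gli1* and *Boc* having no entry. In the 250 bases before the annotated start, *Ptch1* held 41 CpGs, *Gli3* 34, *Gli2* 22, *Smo* 15, *Gas1* 10, *Sufu* 8 and *Cdon* 1. The median over 32851 promoters was 6, with quartiles at 2 and 16. These windows belong to 1 annotated start per gene, which for *Ptch1*, *Gli2* and *Cdon* lies inside the annotated span. The windows of *Ptch1* and *Gli2*, the members lower past 2-fold, are given with that of *Gli3*, which was rich in CpG and within 2-fold, each 5′ to 3′ on the strand of the gene with CpG in capitals.
*Ptch1*, chr13:63565736-63565985, minus strand: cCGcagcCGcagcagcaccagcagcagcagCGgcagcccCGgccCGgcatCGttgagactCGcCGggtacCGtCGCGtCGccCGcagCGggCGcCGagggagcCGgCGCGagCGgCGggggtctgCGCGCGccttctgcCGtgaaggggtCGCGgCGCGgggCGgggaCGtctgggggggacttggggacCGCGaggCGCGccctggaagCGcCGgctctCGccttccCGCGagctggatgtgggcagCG
*Gli2*, chr1:119053620-119053869, minus strand: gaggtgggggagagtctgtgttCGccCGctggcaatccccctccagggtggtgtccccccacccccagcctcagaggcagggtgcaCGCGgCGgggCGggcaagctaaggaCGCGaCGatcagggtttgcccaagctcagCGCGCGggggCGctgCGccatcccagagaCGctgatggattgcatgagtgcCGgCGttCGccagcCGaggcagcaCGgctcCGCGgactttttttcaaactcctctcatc
*Gli3*, chr13:15463473-15463722, plus strand: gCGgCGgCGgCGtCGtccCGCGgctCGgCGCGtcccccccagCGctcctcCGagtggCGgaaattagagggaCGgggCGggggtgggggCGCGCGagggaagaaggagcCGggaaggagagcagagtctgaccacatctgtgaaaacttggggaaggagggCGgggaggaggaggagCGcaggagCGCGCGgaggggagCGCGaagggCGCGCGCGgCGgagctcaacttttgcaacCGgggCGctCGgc

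Of all promoters, 98.9% held fewer CpGs than that of *Ptch1*, 96.5% fewer than that of *Gli3* and 85.2% fewer than that of *Gli2*. The 9-base GLI consensus GACCACCCA was searched on both strands and was found in none of the 7 windows, and in 0.225% of all promoters. The core CCACCC, a part of that consensus, was found on either strand in 3 windows (*Smo*, *Gli2* and *Gli3*) and in 28.1% of all promoters. No methylation was measured in these libraries.

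The wider pathway was described with 7 lists holding 78 further genes, of which 75 were tested. Of these, 10 (*Hhat*, *Nkx2-1*, *Nkx2-2*, *Foxf2*, *Six3*, *Fgf8*, *Bmp4*, *Adcy5*, *Cul3* and *Dyrk2*) were higher past 2-fold and 26 were lower, with a median log2 fold change of -0.31. In all, 48.0% were past 2-fold, against 58.5% of all tested genes. Of all tested genes, 21.2% were higher and 37.3% lower, and these shares are the background for each list below. The lists below include members where they belong.

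Of 8 genes for ligands and their release, 7 were tested, 2 of them higher (*Shh* and *Hhat*) and 3 lower. *Hhat*, the acyltransferase that adds palmitate to SHH, had 166 counts in *tuft* against 94 in wild type, and the fold change was 5.14 (3.97 to 6.70). *Disp1*, which releases the lipid-bearing ligand from cells, had 285 and 487 counts, and the fold change was 1.70 (1.47 to 1.98). *Scube3*, a secreted carrier of the SCUBE family, had 46 and 1089 counts, and the fold change was 0.123 (0.0895 to 0.165). The ligand gene *Ihh* was not counted in *tuft* and had 104 counts in wild type, and *Dhh* had 0 and 7. The fold change of *Ihh* was at most 0.105, the upper end of its interval. Indian hedgehog is made by visceral endoderm, and 6 of 8 yolk sac endoderm markers were lower in *tuft*, 1 was higher (*Amn*, 2.01-fold) and *Afp* was within 2-fold (their summed level was 277 CPM in *tuft* and 2054 CPM in wild type, and *Apoa4* was at 0 in *tuft*). Their part in the *Ihh* difference was not tested.

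Of 10 receptors, co-receptors and surface antagonists described here, 3 were lower and 7 were within 2-fold. *Hhip*, a membrane protein that binds and sequesters the ligand and is a known target, was not counted in *tuft* and had 101 counts in wild type. Its fold change was at most 0.108 by its interval. *Lrp2*, an SHH-binding receptor, had 330 and 2609 counts, and the fold change was 0.368 (0.327 to 0.413). Which tissue of the pools its counts came from was not tested.

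Of 19 known target and ventral patterning genes described here, 3 were higher, 7 were lower and 9 were within 2-fold, and their median log2 fold change was -0.31. *Nkx2-1*, which marks the ventral forebrain, had 766 counts in *tuft* against 295 in wild type, and the fold change was 7.56 (6.60 to 8.68). *Nkx2-2*, of the ventral neural tube, had 77 and 32 counts, and the fold change was 7.01 (4.58 to 10.9). *Nkx2-1* and *Nkx2-2* thus lay on the same side as *Shh*.

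Other genes of the target and ventral patterning list lay on the opposite side. *Olig2* was not counted in *tuft* and had 317 counts in wild type, with a fold change of at most 0.0341 by its interval. *Nkx6-1* had 0 and 44 counts (fold change at most 0.255), and *Foxl1* had 0 and 35 (at most 0.324). At 15 to 30 wild-type CPM, the range of *Olig2*, 2084 genes were found, and 7.34% of them had a *tuft* count of 0. The share was 29.1% of 1320 genes at 5 to 10 wild-type CPM, the range of *Ihh*, *Hhip* and, below, *Ift88*. It was 49.6% of 1407 genes at 2 to 5, that of *Nkx6-1*, *Foxl1* and, below, *Wnt1*. *Ccnd1* (fold change 1.17) and *Mycn* (1.59), growth genes that the pathway can induce, were within 2-fold.

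**Figure D4:**
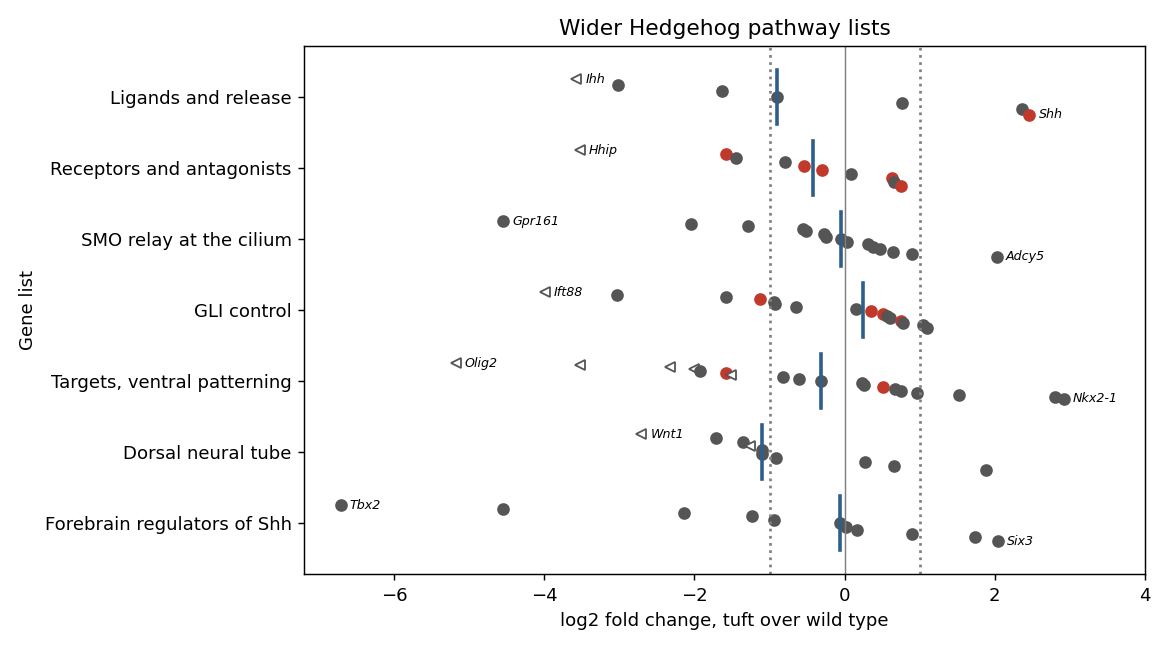
Log2 fold change (*tuft* over wild type) of each tested gene in 7 pathway lists, with the 10 Hedgehog genes in red, other genes in grey, genes at 0 counts in *tuft* as open triangles at the value for 3 counts, list medians as blue bars and dotted lines at 2-fold. Values lie on both sides of 0 in every list; *Nkx2-1* is farthest right at 2.92 and *Tbx2* farthest left at -6.72.

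Of 10 genes of the dorsal neural tube, which Hedgehog signaling restrains, 1 was higher and 6 were lower, with a median log2 fold change of -1.10. Thus 70.0% were past 2-fold, against 58.5% of all tested genes (21.2% higher, 37.3% lower), whose median was -0.46. Whether Hedgehog signaling has a part in these values was not tested. *Pax3* had 31 counts in *tuft* against 295 in wild type, and the fold change was 0.306 (0.204 to 0.444). *Wnt1*, made by the dorsal midline of the midbrain, had 0 and 57 counts, with a fold change of at most 0.195 by its interval. *Bmp4*, a dorsal signal, was the 1 gene higher past 2-fold, with 407 and 320 counts and a fold change of 3.70 (3.19 to 4.30). Of the 3 genes within 2-fold, *Pax7* lay above wild type at 1.58 (1.35 to 1.84), and *Lmx1a* was at 1.21 (0.896 to 1.61). *Msx1* lay below wild type at 0.533 (0.271 to 0.971).

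Of 15 genes that relay the signal from SMO at the cilium, 1 was higher, 3 were lower and 11 were within 2-fold. *Gpr161*, a ciliary receptor that keeps the pathway low through cAMP, had 4 counts in *tuft* against 272 in wild type, and the fold change was 0.0428 (0.0116 to 0.111). *Efcab7*, which anchors the EVC complex near the ciliary base, had 6 and 72 counts, and the fold change was 0.243 (0.0862 to 0.554). *Adcy5*, an adenylyl cyclase, had 49 and 35 counts, and the fold change was 4.08 (2.59 to 6.48).

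Of 16 genes that control the GLI proteins, 2 were higher, 4 were lower and 10 were within 2-fold. *Cul3*, a ubiquitin ligase scaffold, had 565 counts in *tuft* against 766 in wild type at a fold change of 2.15 (1.92 to 2.40). The kinase gene *Dyrk2* had 403 and 567 counts, 2.07-fold higher (1.82 to 2.36). Under library totals neither was past 2-fold, with log2 fold changes of 0.71 and 0.66. *Spop*, the adaptor that brings GLI proteins to CUL3, was lower, with 112 and 979 counts and a fold change of 0.333 (0.271 to 0.405). *Ift88*, needed to build cilia, had 0 and 139 counts, with a fold change of at most 0.0783 by its interval. The kinase gene *Ulk3* had 8 and 191 counts, and the fold change was 0.122 (0.0519 to 0.245). *Kif7*, the ciliary kinesin of the pathway, was within 2-fold at 1.52 (1.35 to 1.71).

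Of 13 forebrain regulators of *Shh* and holoprosencephaly genes, 11 were tested, 2 of them higher, 4 lower and 5 within 2-fold. *Six3*, a homeobox factor that activates *Shh* in the anterior forebrain, had 1361 counts in *tuft* against 958 in wild type, and the fold change was 4.14 (3.81 to 4.50). *Fgf8*, a signal of the anterior neural ridge, had 295 and 258 counts, and the fold change was 3.33 (2.81 to 3.95). *Tbx2*, a repressor of *Shh* in the ventral diencephalon, had 1 and 306 counts, and the fold change was 0.00952 (0.00024 to 0.0534). *Foxh1*, a factor of Nodal signaling, had 1 and 68 counts, and the fold change was 0.0428 (0.00107 to 0.247). The part of any of these genes in the *Shh* difference was not tested.

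The tissue label was checked against its markers. All 10 markers of the rostral neuroepithelium had counts in wild type, with a summed level of 803 CPM there and 1043 CPM in *tuft*, where *Hesx1* was at 0. Of them, 3 were higher past 2-fold (*Emx2*, 6.43-fold, *Six3*, 4.14-fold, and *Sox1*, 3.16-fold), 2 were lower (*Hesx1* and *Rax*) and 5 were within 2-fold. *Otx2*, a factor of the forebrain and midbrain, had 990 counts in *tuft* against 2104 in wild type, a fold change of 1.37. *Rax*, of the eye field and ventral forebrain, had 2 and 389 counts. The 7 posterior Hox genes, which mark the trunk, summed to 0.155 CPM in *tuft* and 0.421 CPM in wild type. Of 8 foregut endoderm markers, another tissue that makes *Shh*, 6 were tested, none higher and 2 lower (*Hhex* and *Spink3*), with summed levels of 209 CPM in *tuft* and 211 CPM in wild type. *Cldn6*, which other epithelia also express, held 182 CPM and 152 CPM of these sums, and the other 7 genes summed to 26.7 CPM and 58.6 CPM, with *Spink3* at 0 CPM and 32.8 CPM.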

How the data were processed

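In the paper, poly-A selected RNA pooled from 3 embryos per genotype gave single-end Ion Proton reads. The values the authors deposited are raw counts per gene symbol, made after trimming with PRINSEQ by alignment to mm10 with TopHat 2.0.14 and Bowtie2 2.2.5 and by htseq-count. The HTSeq version, its strand setting and the gene models are not given in the sources used here, so reads of overlapping genes cannot be told apart by strand. The 5 summary lines of each column were kept out of totals; counts on genes were 27.4% of the entries in *tuft* and 37.3% in wild type, and alignments that were not unique made up 59.2% and 51.4%. Genotypes were taken from the names under which the 2 sets of counts were deposited, since the columns carry no header.

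A single library per genotype leaves edgeR's quasi-likelihood test without residual degrees of freedom, so no p-value is given. The study called genes with NOISeq-sim, which rests on simulated libraries and was not used; its TMM normalization was kept (edgeR 4.0.16, R 4.3.3). A gene was past 2-fold when its fold change reached 2 and the 95% Clopper-Pearson interval left out 1, among genes with 10 or more counts over both libraries. Counts of 0 were set to 3 for fold changes, calls and list medians. The limits given for genes at 0 in *tuft* are the upper ends of their 95% intervals. Exon lengths came from GENCODE vM1 gene models of NCBIM37, an older build than that of the counts, and were used for length only; 93.0% of the tested genes had one. Positions and promoters came from RefSeq GRCm38.p6, the build of mm10 (Python 3.11.15).

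The members, the 7 pathway lists, the 10 marker lists and the rules were chosen with earlier results of these data known. The pathway lists were counted without 1 gene that is not reported here. Named were the members, *Tet1*, genes overlapping a member, and in each pathway list up to 2 genes highest and 2 lowest past 2-fold with 30 or more counts over both libraries, with any gene at 0 in 1 library and at least 30 in the other. *Foxa2*, *Foxj1*, *T*, *Noto*, *Chrd*, *Gsc*, *Disp1*, *Dhh*, *Apoa4*, *Lrp2*, *Ccnd1*, *Mycn*, *Pax7*, *Lmx1a*, *Msx1*, *Kif7*, *Spop*, *Otx2*, *Rax*, *Hesx1*, *Emx2*, *Sox1*, *Amn*, *Afp*, *Hhex*, *Spink3*, *Cldn6*, *Foxf2* and the genes named in the last section were added after their values were seen. Alternatives were library totals alone, upper quartile and median-of-ratios factors, TMM without *Rn45s*, thresholds of 1.5-fold and 4-fold, fold size without the interval, and a minimum of 1 or 100 counts.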

Additional observations from a re-analysis of the deposited data

How the results depend on the processing

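*Shh* stayed the only member higher past 2-fold, and *Ptch1* and *Gli2* the only ones lower, under library totals, upper quartile factors, median-of-ratios factors and TMM without *Rn45s*. Library totals shifted every log2 fold change by -0.39; the other 3 scalings shifted them by -0.05, 0.05 and 0.00. No member that was past 2-fold changed sign under any of the 4 scalings. At a threshold of 1.5-fold, 4 members (*Shh*, *Smo*, *Sufu* and *Gas1*) and 21 wider pathway genes were higher, and 2 members and 34 wider pathway genes lower, against 28.2% of all genes higher and 45.6% lower. At 4-fold, 0 members were lower, and 5 wider pathway genes were higher and 14 lower. Of all tested genes, 1286 (9.2%) were higher and 3091 (22.1%) lower at 4-fold, against 2966 and 5215 at 2-fold. With at least 100 counts, 3439 of all genes were lower. The other 44 of 52 recomputed counts lay within 1.5 times those reported. No paired analysis was possible because there is 1 column of counts per genotype. Depth limits genes at few counts: the 3 counts set in place of a count of 0 are 0.466 CPM in *tuft* and 0.21 CPM in wild type.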

Other observations

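The remaining marker lists give the setting of the tissue. Of 6 neural crest markers, 3 were higher in *tuft* (*Sox9*, *Sox10* and *Ednrb*) and 0 were lower. *Foxd3* was at 0 in *tuft* (14 counts in wild type), and *Ets1* was at 0.638 (0.563 to 0.722) times wild type. The summed levels were 466 CPM in *tuft* and 199.6 CPM in wild type. Of these, *Sox10* held 199 CPM and 23.4 CPM, and *Sox9* held 144 CPM and 38.8 CPM. *Sox9* had 924 counts in *tuft* against 553 in wild type, and the fold change was 4.87 (4.37 to 5.42). Of 8 head mesenchyme markers, 2 were higher and 3 lower (332 CPM and 285 CPM), and *Prrx2* and *Snai2* were at 0 in *tuft*. *Twist1*, one of the higher genes, held 171 CPM and 71.7 CPM of these sums. Of 7 surface ectoderm markers, 2 were higher and 1 lower (797 CPM and 611 CPM). Of these sums, *Krt8* held 335 CPM and 141 CPM and *Krt18* held 305 CPM and 208 CPM. *Cdh1*, the lower gene, held 25.2 CPM and 144 CPM, a fold change of 0.229 (0.194 to 0.269). Of 7 endothelial markers, 2 were higher and 4 lower (134 CPM and 310 CPM), *Pecam1* being at 0 in *tuft*. Of 7 markers of primitive erythroid cells, 3 were higher and 3 lower (35525 CPM and 3206 CPM), with *Gata1* and *Klf1* at 0 in *tuft*. Most of that sum came from embryonic globin genes. The part of any of these cells in the Hedgehog values was not tested.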
